A study of Mus musculus with 26 samples.

Results

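Mouse primordial germ cell-like cells (PGCLCs) at day 4 of induction, with dTAG13 at 500 nM or with its solvent DMSO, were compared across every gene whose mean over the 10 libraries of their table was 1 or more. This rule kept 16605 of the 53978 genes in the table. The comparison uses 4 of the 26 libraries of the series, 2 with DMSO and 2 with dTAG13. It asks which gene programmes differ when Tex10 depletion has lasted to day 4, and the day 2 libraries of the same experiment, again 2 with each agent, show which changes are larger by then. All of these cells were of strain 129Sv/J and were derived from epiblast-like cells (EpiLCs), of which 2 untreated libraries enter the fit. The labels give the agent and the day but not the tagged allele, the number of clones, the hours of treatment or any sorting of germ cells, and they do not say whether replicates were separate cultures. P-values therefore measure the spread between these libraries, which may be technical.

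Tex10 is a nuclear protein of a complex with Pelp1, Wdr18, Las1l and Senp3 that takes part in maturing the large ribosomal subunit, and it has also been studied as a cofactor of pluripotency factors. dTAG13 is a small molecule that joins a tagged protein to an E3 ubiquitin ligase, so that the protein is degraded while its mRNA is not a direct target. PGCLCs are a culture model of the founder cells of the germline: BMP signals induce the regulators Prdm1, Prdm14 and Tfap2c in epiblast-like cells, after which pluripotency genes return and somatic genes are held down.

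Values are CPM, read counts divided by a TMM-scaled library size, and are called units here. Every log2 change was taken between means of log2(value + 1), so that of a low gene is understated. Genes with a limma adjusted p under 0.05 (Benjamini-Hochberg, over all 16605 genes) are said to be called. The 10 libraries held 5055362 to 8564563 reads in the table, and the day 4 libraries 8072009 and 8293878 (DMSO) and 5399905 and 5138104 (dTAG13). The DMSO pair of day 4 stood apart from the other pairs: its chi-square per gene between replicates was 14.9, against 3.49 to 5.06 in the other 4 groups. Genes above 0 numbered 23893 and 28687 in its replicates 1 and 2, and 28809 and 27161 with dTAG13 at day 4. At day 2 they numbered 23999 and 23860 with DMSO and 26078 and 26842 with dTAG13. The cause of these differences was not tested. Where leaving out a day 4 library moves a list's total number of calls, both directions together, by more than 1.5 times, the number without it is given too. Counts of 1 to 3 in 1 direction often moved with single libraries and carry little weight. Tex10 mRNA itself was at 110 and 105 units with DMSO and at 76.8 and 72.8 with dTAG13, a log2 change of -0.51 ± 0.11 (SE; limma adjusted p 0.000576). The groups did not overlap, but the degron acts on the protein, which was not measured, so this checks the labels only weakly. Exons of Tex10 overlap those of Invs on the other strand, and the counting is not stated to use strand.

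Of the 16605 genes, 6945 (41.8%) were called at day 4, 2625 of them higher (15.8% of tested genes) and 4320 lower (26.0%) with dTAG13. The median log2 change of all tested genes was -0.13. The split between higher and lower depended on the scaling: 37.8% of calls were higher on the deposited scale, but 50.2% of 6466 calls after median-ratio scaling, which moved the median of all genes to -0.02. Single genes and lists are best read against that median. An absolute log2 change of at least 1 was reached by 2597 called genes, 1338 higher (8.06% of tested genes) and 1259 lower (7.58%). The authors' deposited table lists 4037 of the tested genes at a false discovery rate under 0.05 (24.3%), and 4031 of these were also called here in the same direction.

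**Figure D1:**
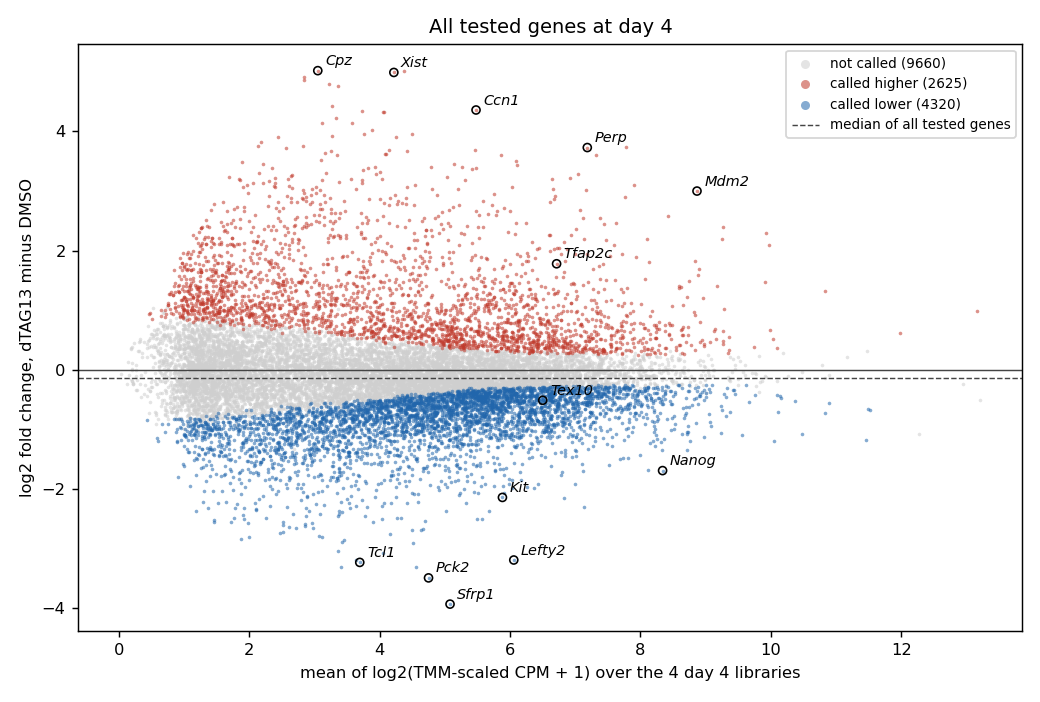
Each point is 1 of the 16605 tested genes, with its mean log2(TMM-scaled CPM + 1) over the 4 day 4 libraries on the x axis and its log2 fold change (dTAG13 minus DMSO) on the y axis. Red marks the 2625 genes called higher, blue the 4320 called lower, grey the rest, and the dashed line is the median of -0.13. Increases reach 5.02 (Cpz) and decreases -3.93 (Sfrp1).

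Several of the genes with the largest increases were nearly silent in the DMSO cells. Cpz, a carboxypeptidase that binds Wnt proteins, was at 0.322 and 0.597 units with DMSO and at 49.4 and 43.1 with dTAG13, a log2 change of 5.02 ± 0.26 (SE; limma adjusted p 2.34e-12). Ltb4r2 and Ltb4r1, neighbouring genes for leukotriene B4 receptors, rose by 5.01 and 4.76 on the log2 scale. Ltb4r1 went from 0.859 and 1.10 to 58.7 and 47.2 units. Vgf, a precursor of secreted neuropeptides, and Neurod1, a transcription factor of neurons and endocrine cells, rose by 4.86 and 4.42, and Neurod1 shares exon positions with Cerkl on the same strand. Ptprt (4.92), a receptor phosphatase, Jph2 (4.80), a protein of muscle membrane junctions, and Itga8 (4.35), an integrin subunit, complete the set together with Xist and Ccn1, which are described with their groups. In all 10 genes both dTAG13 libraries lay above both DMSO libraries, as the rule for naming them required. Groups that do not overlap were common, with 68.4% of tested genes having both dTAG13 libraries on the same side of both DMSO libraries. Up to 4 named members of each list below were likewise picked only among called genes with groups apart. That groups do not overlap in such genes is therefore no support.

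The largest decreases included secreted inhibitors and genes of metabolism and pluripotency. Sfrp1, which binds and blocks Wnt ligands, was at 156 and 110 units with DMSO and at 8.95 and 6.52 with dTAG13, a log2 change of -3.93 ± 0.19 (SE; limma adjusted p 7.58e-13). Lefty2, an inhibitor of Nodal signalling, was at 212 and 188 against 23.6 and 18.8 units, and Notch4, a Notch receptor, at 59.5 and 89.0 against 8.65 and 4.77. Gbx2, a homeobox factor of naive pluripotency and of the hindbrain boundary, went from 30.2 and 44.6 to 2.93 and 3.34 units. The other members of the 10 were Pck2, Tcl1 and Chac1, taken up below, Slfn9 (-3.31), Kank4 (-2.90) and Xaf1 (-2.88). Xaf1 was uneven between the dTAG13 libraries, at 6.45 and 1.11 units, still under the 32.1 and 24.7 of the controls. Slfn9 belongs to a family of similar genes whose reads may be split between copies.

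**Figure D2:**
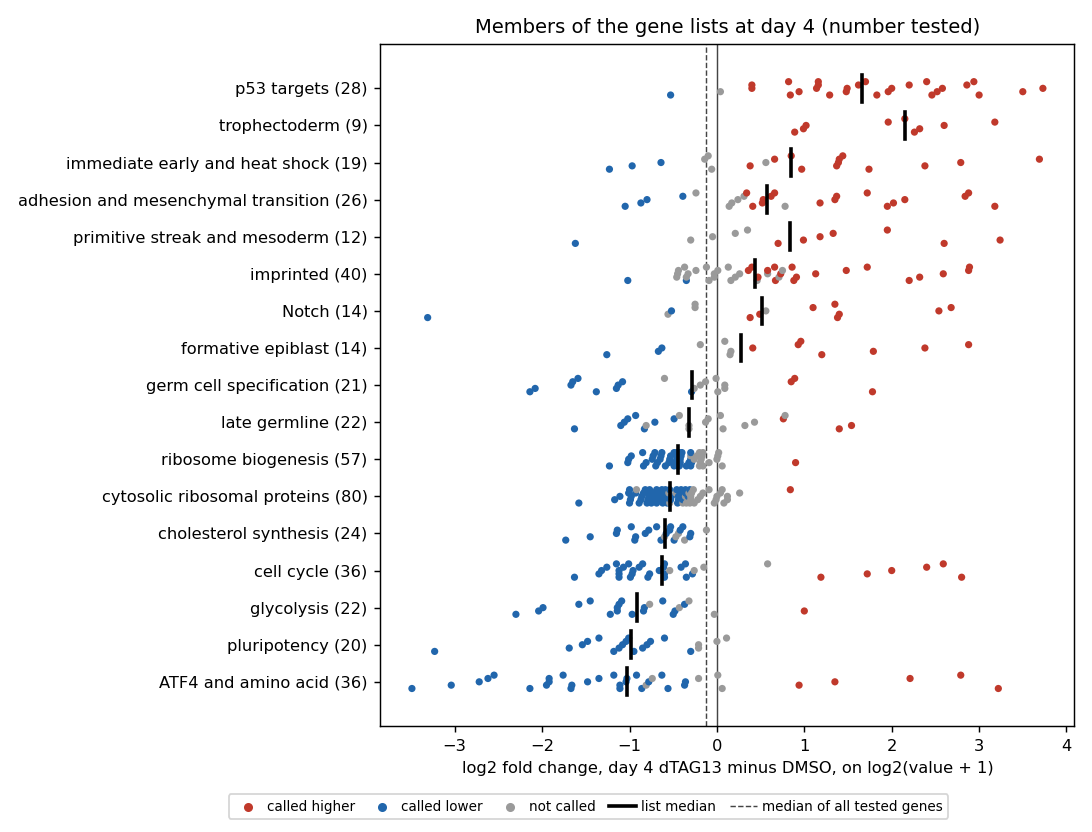
Each point is a tested member of a gene list, placed by its log2 fold change at day 4 (dTAG13 minus DMSO), with the number tested in brackets. Red and blue points were called higher or lower, grey points were not called, black bars are list medians and the dashed line is the median of all tested genes, -0.13. The p53 target list (median 1.66) lies to the right of it and the ATF4 and amino acid list (median -1.03) to the left.

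Targets of p53, the transcription factor that halts division or starts cell death after DNA damage or faulty ribosome assembly, were mostly higher with dTAG13. Of 28 listed genes, all of them tested, 26 were called higher (92.9%, against 15.8% of all tested genes) and 1 lower, and the list's median log2 change was 1.66 against -0.13 over all genes. Perp, a membrane protein of p53-dependent death and of cell junctions, was at 40.0 and 37.8 units with DMSO and at 502 and 558 with dTAG13. That is a 13.3-fold difference (log2 change 3.73 ± 0.11, SE; limma adjusted p 4.99e-16). Mdm2, the ubiquitin ligase that degrades p53, was at 163 and 165 against 1244 and 1402 units (log2 change 3.00 ± 0.10, SE; limma adjusted p 1.22e-15). Plk2, a Polo-like kinase, went from 22.3 and 16.6 to 221 and 236 units, and Ddit4l, an inhibitor of mTOR signalling, from 9.45 and 9.76 to 80.8 and 80.4. Cdkn1a, which encodes the cell cycle inhibitor p21, was at 51.7 and 44.2 against 201 and 187 units (log2 change 2.00). For each of these genes the lower dTAG13 value was at least 3 times the higher DMSO value. Among mediators of apoptosis, Pmaip1 rose by 2.58, Apaf1 by 1.83, Bbc3 by 1.14 and Bax by 0.40 on the log2 scale. Sesn1, a stress-induced inhibitor of mTOR, had a log2 change of -0.53, and its call was lost without DMSO replicate 1 or without dTAG13 replicate 2, while Gdf15, a secreted stress hormone, was at 17.1 and 15.7 against 20.7 and 13.7 units with overlapping groups and was not called.

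A promoter of Cdkn1a is shown because a search found a p53 response element in it. The element was searched by name as 2 adjacent half-sites with intact cores and up to 2 other mismatches, in windows of 250 bases before to 50 after each RefSeq gene start on GRCm38.p6. It was found for 2 of 22 list members with a window (9.09%) and for 0.189% of 27025 genes. Some genes have more than 1 start and window (32851 windows in all), and a match in any of them counted. The start shown for a gene therefore need not be its main one. The 100 bases before a start of Cdkn1a (chr17:29090879-29090978, + strand) and a stretch before a start of Rps27l (chr9:66946256-66946355, + strand) are given 5′ to 3′ with the element in capitals.
Cdkn1a: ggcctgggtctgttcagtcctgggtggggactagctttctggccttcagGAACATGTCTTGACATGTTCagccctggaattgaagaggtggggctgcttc
Rps27l: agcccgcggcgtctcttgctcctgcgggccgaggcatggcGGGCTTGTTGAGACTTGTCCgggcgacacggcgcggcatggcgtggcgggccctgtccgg
Rps27l, a ribosomal protein-like gene, was uneven in the controls, at 78.0 and 33.1 units, and was at 89.6 and 94.2 with dTAG13 (log2 change 0.84 ± 0.24, SE; limma adjusted p 0.00710). The motif was chosen after the values were seen, and a match is no evidence of binding. The windows of the other 20 members say only that these letters are not in them.

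**Figure D3:**
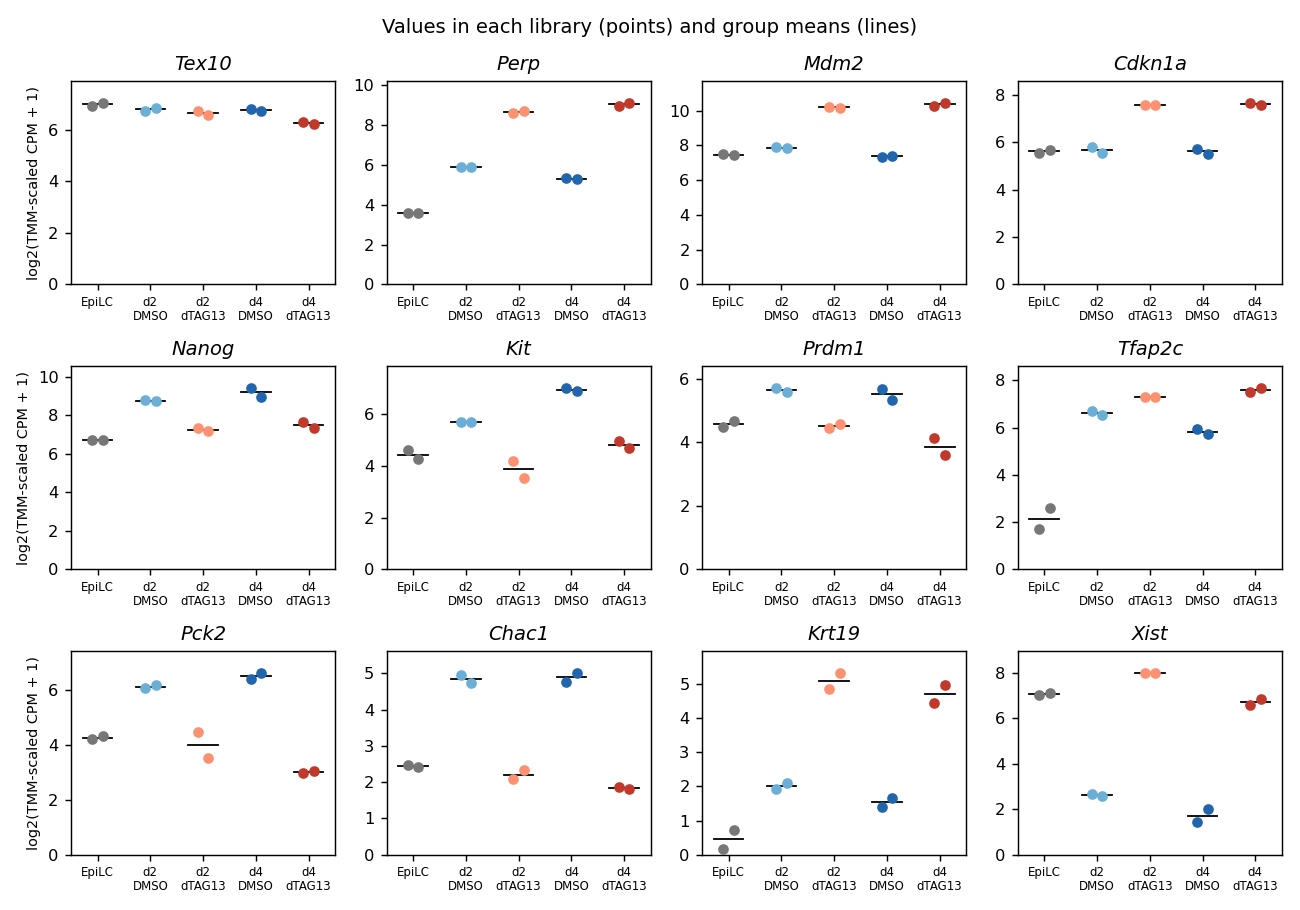
Each panel shows 1 gene, with a point for each of the 10 libraries on a log2(TMM-scaled CPM + 1) axis that starts at 0 and a line at each group mean (EpiLC, day 2 and day 4 with DMSO or dTAG13, 2 libraries each). At day 4 the dTAG13 points of Perp, Mdm2, Cdkn1a, Tfap2c, Krt19 and Xist lie above the DMSO points, and those of Tex10, Nanog, Kit, Prdm1, Pck2 and Chac1 below them.

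Most cell cycle genes listed were lower. Of 36 cell cycle genes, 26 were called lower (72.2%, against 26.0% of all tested genes), with a median log2 change of -0.63. Another 6 were called higher (16.7%), a share near the 15.8% of all tested genes. E2f2, a factor of the G1 to S transition, was at 32.5 and 42.7 units with DMSO and at 9.97 and 12.9 with dTAG13. Ccne1, a cyclin of S phase entry, went from 62.1 and 79.4 to 23.9 and 30.2. Pcna, the sliding clamp of DNA polymerase, fell by 1.26 on the log2 scale. Groups did not overlap in these 3 genes, but the naming of list members favoured such genes. The 6 genes that rose were Ccnd2, Rb1, Cdkn2b, Cdkn1a, Cdkn1c and Rbl2, of which all but the D-type cyclin Ccnd2 restrain the cycle. Rb1, the retinoblastoma protein, was at 17.7 and 17.9 against 109 and 115 units (log2 change 2.59 ± 0.13, SE; limma adjusted p 1.62e-12), although its exons overlap Lpar6 on the other strand. Ccnd2 went from 6.66 and 6.67 to 46.6 and 58.8 units, while Ccnd1 (147 and 120 against 47.4 and 58.5) and Ccnd3 fell.

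Pluripotency genes were lower: of 20 listed genes 16 were called lower (80.0%, against 26.0% of all tested genes), 0 higher, and the median log2 change was -0.98. The limma test put 0 members in the higher direction, and with any 1 day 4 library left out the number lower was 15 or 16. Nanog was at 683 and 493 units with DMSO and at 203 and 159 with dTAG13, a log2 change of -1.69 ± 0.13 (SE; limma adjusted p 1.48e-09). The orphan receptor Nr0b1 was at 73.0 and 61.1 against 27.7 and 18.0 units. Tdh, the threonine dehydrogenase of naive stem cells, was at 130 and 129 against 48.4 and 43.1. Tcl1, a coactivator of Akt kinase, fell furthest, from 42.0 and 35.6 to 4.25 and 2.38 units. In each of these genes the groups were well apart, which the naming of list members favoured. Pou5f1, which encodes Oct4, fell less, from 357 and 300 to 195 and 191 units (log2 change -0.76). Sox2 was nearer still, at 570 and 456 against 436 and 391 (log2 change -0.30 ± 0.11, SE; limma adjusted p 0.0341), and its call was lost under 8 of 14 other settings, median-ratio scaling and both tests on reads among them. The 4 members not called were Klf5, Tbx3, Dppa4 and Fbxo15, with log2 changes between -0.21 and 0.11.

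The germ cell regulators did not move together. Of 21 genes of germ cell specification, 10 were called lower (47.6%, against 26.0% of all tested genes) and 3 higher (14.3%, against 15.8%), with a median log2 change of -0.29 (-0.16 after median-ratio scaling). Prdm1, which encodes Blimp1 and represses the somatic programme, was at 49.8 and 39.4 units with DMSO and at 16.4 and 11.0 with dTAG13 (log2 change -1.65 ± 0.18, SE; limma adjusted p 1.62e-07). Prdm14, which restores pluripotency genes in germ cells, was at 49.0 and 44.2 against 13.1 and 7.95 units (log2 change -2.08). Tfap2c, the third regulator, went the other way, from 59.8 and 51.8 to 183 and 204 units (log2 change 1.78 ± 0.18, SE; limma adjusted p 7.5e-08). Its dTAG13 libraries were each over 3 times either control, whereas those of Prdm1 and Prdm14 lay below both controls. Kit, the receptor by which migrating germ cells survive, was at 128 and 117 against 30.1 and 24.5 units. The homeobox gene Rhox5 went from 13.9 and 10.8 to 3.67 and 2.70 units, though its family has similar copies. Nanos3, an RNA-binding survival factor of germ cells, was at 10.5 and 16.6 against 8.21 and 8.58 units and was not called (limma adjusted p 0.0558), but it was under 3 other settings, among them without day 4 DMSO replicate 1. Dppa3, a standard germ cell marker, lay between 1.07 and 1.32 units in all 4 libraries, so this marker does not bear out the germ cell label, whereas Prdm1, Prdm14 and Tfap2c were detected in all 4. In bulk RNA fewer cells of a type and less RNA per cell cannot be told apart.

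Of 22 tested later germline genes 8 were called lower (36.4%, against 26.0% of all tested genes) and 3 higher (13.6%, against 15.8%), so neither share was far from that of all genes. The count lower was 4 without day 4 dTAG13 replicate 1 and 5 without day 4 DMSO replicate 2. Stra8, a gene that starts meiosis, was lower, with a log2 change of -1.63. Hormad1, a meiotic chromosome axis protein, went from 7.09 and 6.77 to 21.1 and 22.9, and Dazl, an RNA-binding protein of committed germ cells, from 25.0 and 20.4 to 41.6 and 36.2 (log2 change 0.76). Ddx4, the germ cell helicase also called Vasa, was at 5.16 and 5.97 against 4.25 and 3.50 units and was not called. These 3 called genes each had groups that did not overlap, which the naming of list members favoured.

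Among markers of other lineages, those of trophectoderm were higher with dTAG13. Of 12 trophectoderm genes 9 passed the filter, all 9 were called higher (against 15.8% of all tested genes) and their median log2 change was 2.15. Members could pass the filter because of the groups in which they were high, so this count is no measure over all 12. With no filter on low values 7 were called higher and the median log2 change was 1.49. The summed level of the 12 genes was 26.5 and 28.2 units with DMSO and 109 and 170 with dTAG13. Krt19, a keratin of simple epithelia, was at 1.61 and 2.19 against 20.7 and 30.5 units (log2 change 3.18 ± 0.29, SE; limma adjusted p 1.12e-08). Gata3, a factor of trophectoderm and other epithelia, was at 3.33 and 3.29 against 15.5 and 24.6, and Hand1, a factor of trophoblast and mesoderm, at 2.04 and 2.79 against 15.7 and 24.5. Ascl2, an imprinted trophoblast factor, went from 0.752 and 0.896 units to 6.60 and 9.85. The dTAG13 libraries were unequal, with replicate 2 the higher in all 4 of these genes, and 7 members were called without it or without DMSO replicate 1. Cdx2, which defines trophectoderm, was at 0.322 and 0.597 against 1.47 and 2.38 units, and its call was lost without that library, without DMSO replicate 1 and with no filter on low values. Elf5 and Tpbpa, the other defining genes, stayed at or under 0.587 units in all 4 libraries. The part of other cell types in these changes was not tested.

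Of 24 primitive streak and mesoderm genes 12 passed the filter, some of them through the dTAG13 libraries, and 7 of these were called higher and 1 lower, against 15.8% of all tested genes higher and 26.0% lower. The number higher was 3 without day 4 DMSO replicate 1, and the median log2 change of 0.84 was 0.34 with no filter on low values. Wnt3, the ligand that starts the streak, had 1 read in the DMSO pair together and was at 9.09 and 8.74 units with dTAG13. Gata2, a factor of blood and trophoblast, went from 7.41 and 7.97 to 32.6 and 32.7 units. T, which encodes Brachyury and is a target of Wnt3 in germ cell induction, was at or under 0.0996 units in all 4 libraries and was not tested. The summed level of the 24 genes was 72.0 and 75.8 units with DMSO against 110 and 115. For endoderm, 2 of 7 tested genes were called, against 41.8% of all tested genes, and without day 4 DMSO replicate 1 there were 3 higher and 1 lower. The 2 genes, both higher, were Gata6 (0.322 and 0.498 against 7.48 and 6.04 units) and the laminin gene Lamb1. Sox17 was at or under 1.03 units in every day 4 library. The list's median, -0.08, changed sign with the scaling and is no direction.

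Neural genes were split: Nes, an intermediate filament of progenitors, was at 20.3 and 16.6 against 133 and 167 units, while Tubb3, a neuronal tubulin, went from 88.0 and 64.7 to 19.1 and 15.7 and Pax6 from 6.44 and 8.96 to 2.35 and 2.22. In all, 2 of 6 tested neural genes were called higher and 3 lower, against 15.8% of all tested genes higher and 26.0% lower, but 1 higher and 2 lower without DMSO replicate 1 or without dTAG13 replicate 2. With no filter on low values 5 were higher and 2 lower, so the list has no direction. Of 14 formative epiblast genes 7 were called higher and 3 lower (21.4%), read against the same shares of all genes, and the median was 0.28. Fgf5, the marker of that state, was at or under 0.318 units in all 4 libraries, and Otx2, at 26.2 and 30.7 against 33.7 and 29.9, had overlapping groups. Of 38 Hox genes 10 passed the filter, and 4 were called (against 41.8% of all tested genes), but 2 without DMSO replicate 1 or without dTAG13 replicate 2. Among them Hoxc13 rose from 6.44 and 6.47 to 26.1 and 30.2. Fibroblast markers, which would show feeder cells, summed to 11.8 and 13.7 units with DMSO and 11.3 and 17.3 with dTAG13 over 12 genes. Postn was at 0 in all 4 libraries and 1 of 6 tested genes, Col1a1, was called (higher), a share below the 41.8% of all tested genes. Without DMSO replicate 1 that call was lost and 0 were called in limma, and without dTAG13 replicate 2 there were 2 calls, 1 in each direction.

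Each signalling list held genes called higher and genes called lower, as the table does as a whole (15.8% higher and 26.0% lower). In the BMP pathway, which induces germ cells, 8 of 16 tested genes rose and 4 fell. The median log2 change was 0.54, but 0.30 without day 4 DMSO replicate 2 and 0.26 with no filter on low values. The ligand Bmp4 fell from 36.1 and 37.7 to 12.0 and 10.6 units (log2 change -1.62 ± 0.20, SE; limma adjusted p 8.37e-07), whereas Bmp8b, the partner ligand made by extraembryonic cells, rose from 0.107 and 0.597 to 9.39 and 11.6. Among direct BMP target genes Id3 went from 24.2 and 22.4 to 59.8 and 66.1 units and Id1 from 180 and 102 to 207 and 244, and the inhibitor Smad7 from 295 and 340 to 246 and 218. The target Msx2, a homeobox gene, went from 5.37 and 4.78 to 16.9 and 15.7. Without any 1 of the 4 day 4 libraries 2 were called lower, and without DMSO replicate 2 the count higher was 6.

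In the Notch pathway 8 of 14 tested genes rose (57.1%, against 15.8% of all tested genes) and 2 fell (14.3%, against 26.0%; median 0.52). Notch3 was at 49.4 and 65.1 units with DMSO and at 333 and 334 with dTAG13 (log2 change 2.54 ± 0.12, SE; limma adjusted p 9.12e-13), the opposite of Notch4. The ligand Jag2 was at 12.8 and 11.6 against 85.8 and 80.6 units. Hes1, a repressor that Notch induces, was at 32.4 and 29.4 against 24.1 and 18.6 (limma adjusted p 0.0261), but this call was lost after median-ratio scaling, with no filter on low values and without DMSO replicate 1. The target genes Hey1 and Nrarp were not called.

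Wnt genes were called higher in 11 of 25 tested cases and lower in 8. The ligands Wnt7b (7.84 and 6.87 against 39.6 and 47.8 units) and Wnt6 (0.537 and 0.398 against 7.19 and 10.5) rose. The inhibitors Sfrp1 and Notum fell, Notum from 22.1 and 26.2 to 6.60 and 2.70 units. Axin2, a general target of the pathway, was at 6.34 and 5.97 against 6.01 and 5.72 units with overlapping groups. Among FGF genes 6 of 18 were called higher and 5 lower, a share lower (27.8%) near the 26.0% of all genes, and 3 were lower without DMSO replicate 2, without dTAG13 replicate 2 or after median-ratio scaling. Fgf4, the ligand of pluripotent cells, fell from 357 and 289 to 151 and 133, and the feedback inhibitor Spry4 from 106 and 148 to 53.4 and 46.9. In a list of Nodal pathway genes written after the values were seen, Nodal itself rose from 74.0 and 57.6 to 123 and 109 units. Its coreceptor Tdgf1 (525 and 443 against 207 and 209 units) and its inhibitor Lefty1 (29.0 and 27.8 against 4.69 and 1.91) fell, as did Inhbb, a subunit of activin B (235 and 241 against 58.5 and 47.8). Over that list 3 of 17 genes were called higher and 7 lower.

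Genes of amino acid supply, many of them targets of the stress-responsive factor ATF4, were lower. Of 36 listed genes 26 were called lower (72.2%, against 26.0% of all tested genes) and 5 higher (13.9%, against 15.8%), with a median log2 change of -1.03. Pck2, the mitochondrial phosphoenolpyruvate carboxykinase, was at 82.5 and 96.1 units with DMSO and at 6.89 and 7.15 with dTAG13 (log2 change -3.49 ± 0.21, SE; limma adjusted p 1.79e-11). Chac1, which breaks down glutathione, was at 26.2 and 31.2 against 2.64 and 2.54 units. The serine synthesis genes Phgdh, Psat1 and Psph fell by 2.62, 1.92 and 1.67 on the log2 scale. Mthfd2 and Shmt2, enzymes of mitochondrial folate metabolism, fell by 1.92 and 1.76, and Psat1 went from 270 and 227 to 71.6 and 58.6 units. The amino acid transporters Slc7a3, Slc7a1 and Slc7a5 fell by 1.95, 1.48 and 1.35. None of these genes had overlapping groups, but the naming of list members favoured such genes. Atf4 mRNA was at 251 and 235 against 246 and 245 units (log2 change 0.01 ± 0.10, SE; limma adjusted p 0.945), and ATF4 is controlled largely through translation, which these data do not measure. The 5 genes that rose were Ddit4, Atf3, Ddit3, Cebpb and Sesn2, which other stress pathways also induce. What raised them here was not tested. Ddit4, an inhibitor of mTOR, went from 34.4 and 42.8 to 368 and 366 units.

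The promoters of 5 of these genes are shown because they hold the composite element to which ATF4 binds together with C/EBP proteins. It was searched as TGATGNAA on both strands of the same promoter windows, and was found for 9 of 29 members with a window (31.0%) and for 4.51% of 27025 genes. Of the 9, Chac1, Pck2, Nupr1, Pycr1, Asns and Gars fell, Atf3 rose, and Trib3 and Slc7a11 were not called. Each stretch below is 100 bases of GRCm38.p6 in the direction of the gene, with the element in capitals. The positions are chr2:119351003-119351102 (+) for Chac1, chr14:55540117-55540216 (+) for Pck2, chr7:126625527-126625626 (-) for Nupr1, chr11:120643798-120643897 (-) for Pycr1 and chr1:191183390-191183489 (-) for Atf3.
Chac1: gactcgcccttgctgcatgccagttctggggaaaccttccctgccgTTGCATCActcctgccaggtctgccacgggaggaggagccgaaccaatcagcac
Pck2: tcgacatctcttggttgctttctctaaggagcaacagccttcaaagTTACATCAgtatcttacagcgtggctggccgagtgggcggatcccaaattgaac
Nupr1: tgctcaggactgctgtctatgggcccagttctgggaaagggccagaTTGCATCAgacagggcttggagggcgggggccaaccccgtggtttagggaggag
Pycr1: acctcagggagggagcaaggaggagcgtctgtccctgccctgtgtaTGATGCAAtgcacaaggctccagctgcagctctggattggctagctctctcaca
Atf3: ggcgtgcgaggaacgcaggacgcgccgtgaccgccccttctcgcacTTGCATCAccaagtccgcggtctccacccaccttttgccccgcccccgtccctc
The element ends 186 bases before the start used for Chac1, 96 before those used for Pck2 and Pycr1 and 103 before those used for Nupr1 and Atf3. Chac1, Pck2, Nupr1 and Atf3 hold it on the opposite strand to the letters searched. The log2 changes were -3.04 for Chac1, -3.49 for Pck2, -2.72 for Nupr1, -2.14 for Pycr1 and 2.79 for Atf3, so genes with the same element moved in different directions. This motif too was chosen after the values were seen, and a match is no evidence of binding.

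Genes of ribosome production were lower by smaller amounts. Of 57 ribosome biogenesis genes 41 were called lower (71.9%, against 26.0% of all tested genes) and 1 higher, with a median log2 change of -0.44. The total called, 42, was 26 after median-ratio scaling and 27 without day 4 dTAG13 replicate 2. Nop10, a small protein of the pseudouridylation complex, was at 41.9 and 31.9 against 14.5 and 15.4 units, and Nolc1, a nucleolar chaperone, at 207 and 192 against 89.9 and 106. Ncl, the abundant nucleolar protein nucleolin, was at 1442 and 1361 against 857 and 870. Groups did not overlap in these 3 genes, which the naming of list members favoured. Utp20, of the small subunit processome, was the gene that rose, from 150 and 174 to 300 and 305 units. Of Tex10's own complex, 5 of 7 genes were called lower and 0 higher in limma (median -0.42): Tex10, Pelp1, Wdr18, Las1l and Senp3. Among 80 cytosolic ribosomal protein genes 51 were called lower (63.8%) and 1 higher (median -0.54). The number lower was 37 after median-ratio scaling and 38 with no filter on low values. With a day 4 library left out the median lay between -0.58 and -0.50. These genes share reads with many pseudogenes, so single members are uncertain.

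In lists of energy and lipid metabolism most calls were lower. Of 22 glycolysis genes 17 were called lower (77.3%, against 26.0% of all tested genes) and 1 higher (median -0.91). Pfkp, a phosphofructokinase, was at 272 and 357 units with DMSO and at 68.3 and 57.4 with dTAG13 (log2 change -2.30 ± 0.12, SE; limma adjusted p 4.08e-12). The lactate transporters Slc16a1 (178 and 150 against 38.3 and 42.4 units) and Slc16a3 (17.5 and 15.7 against 4.69 and 2.22) fell. Both groups were far apart in these genes, which the naming of list members favoured. Gapdh, which has many processed pseudogenes, was at only 78.1 and 92.3 against 38.1 and 37.8 units. In cholesterol synthesis 19 of 24 genes were called lower (79.2%) and 0 higher in limma (median -0.59), among them Insig1, a sensor of sterols (38.2 and 35.2 against 7.77 and 13.8 units), and the enzymes Msmo1 and Cyp51. Of 49 nuclear genes of oxidative phosphorylation 22 were called lower (44.9%) and 1 higher (2.04%, against 15.8%), with a median of -0.41. The number lower was 16 after median-ratio scaling and 15 with no filter on low values. With a day 4 library left out 16 to 25 were lower and 0 to 2 higher. Mitochondrially encoded mRNAs turned on single libraries: mt-Nd1 was at 5818 and 3052 units with DMSO against 1665 and 2117. Of 9 tested, 6 were called lower, but 3 without DMSO replicate 1 and 2 without dTAG13 replicate 1.

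Among genes of DNA methylation 7 of 12 were called lower (58.3%, against 26.0% of all tested genes) and 2 higher (16.7%, against 15.8%), with a median of -0.52. Uhrf1, which brings Dnmt1 to replicated DNA, was at 196 and 214 units with DMSO and at 80.1 and 78.0 with dTAG13 (log2 change -1.36 ± 0.10, SE; limma adjusted p 9.27e-10). Tet1, a 5-methylcytosine oxidase, was at 2189 and 2524 against 1457 and 1387, and Dnmt3l, a cofactor of the de novo methyltransferases, rose from 8.05 and 11.7 to 36.8 and 31.9. In the list of Polycomb and H3K9 methylation genes 11 of 25 were called lower (44.0%) and 3 higher (12.0%), with Ezh2, the H3K27 methyltransferase, at 101 and 127 against 63.4 and 55.9 units and Trim28, a corepressor of transposons, lower by a log2 change of -1.20. Of 40 tested imprinted genes 18 were called higher (45.0%, against 15.8% of all tested genes) and 2 lower (median 0.43), the latter being 1 without DMSO replicate 2 or dTAG13 replicate 1 and 3 without DMSO replicate 1 or dTAG13 replicate 2. H19, a maternal noncoding RNA, was at 23.4 and 19.6 against 128 and 140 units, and Sgce and Peg10, neighbours expressed from the paternal copy, at 2.26 and 2.69 against 23.8 and 25.3 and at 240 and 335 against 989 and 1718.

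Xist, the noncoding RNA that silences 1 X chromosome in female cells, was at 1.72 and 2.99 units with DMSO and at 94.2 and 115 with dTAG13. The log2 change was 4.99 ± 0.16 (SE; limma adjusted p 1.22e-15), and the dTAG13 values were near those of the EpiLC libraries, 129 and 138. Rlim, an X-linked activator of Xist, was at 264 and 219 against 808 and 913 units, Ftx at 12.7 and 13.2 against 27.6 and 25.7, and Tsix, the antisense repressor, at 89.9 and 142 against 63.5 and 61.8. Xist and Tsix overlap, and without strand their reads cannot be told apart where they do. The 567 tested genes of chromosome X had a median log2 change of -0.17, against medians of -0.24 (chromosome 6) to -0.03 (chromosome 12) on the autosomes. At day 2 chromosomes X (-0.22) and 6 (-0.34) had lower medians than the others, which lay between -0.13 and 0.01, and at day 4 X lay within the range of the autosomes while 6 was the lowest. Without the genes of both, 6392 genes were called at day 4. The Y-linked genes listed were at 0 in 3 of the 4 libraries and summed to 0.318 units in dTAG13 replicate 2.

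Immediate early genes, transcribed within minutes of a stimulus, and heat shock genes were called higher in 12 of 19 tested cases (63.2%, against 15.8% of all tested genes) and lower in 3 (15.8%, against 26.0%), with a median of 0.85. Jun, a subunit of the AP-1 factor, was at 11.0 and 11.7 units with DMSO and at 151 and 165 with dTAG13 (log2 change 3.69 ± 0.14, SE; limma adjusted p 1.56e-14). Its exons overlap the noncoding gene Junos on the other strand. Fos was at 1.29 and 1.99 against 8.95 and 17.6 units and Egr1 at 7.09 and 13.9 against 25.4 and 29.6. Groups did not overlap in these genes, but the naming of list members favoured such genes. Hspa5, the main chaperone of the endoplasmic reticulum, fell from 470 and 399 to 182 and 187 units.

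A list of targets of YAP and SRF, factors that respond to cell shape and the actin cytoskeleton, was written after the values were seen, and 17 of its 24 tested genes rose (70.8%, against 15.8% of all tested genes) and 2 fell (8.33%, against 26.0%), with a median of 0.92. Ccn1, a secreted matrix protein, was at 9.56 and 8.17 units with DMSO and at 175 and 231 with dTAG13, and Ccn2 at 13.7 and 11.1 against 125 and 149. Tagln, an actin-binding protein of smooth muscle, went from 3.22 and 2.29 to 58.5 and 91.7 units, while the smooth muscle actin Acta2 had overlapping groups, at 4.73 and 5.08 against 0.587 and 6.67. Of 26 genes of adhesion and mesenchymal transition 16 were called higher (61.5%) and 4 lower (15.4%), with a median of 0.57, led by the keratins Krt19 and Krt18 and the epithelial integrin Itgb4 (8.48 and 4.58 against 54.7 and 47.8 units). Krt18 was uneven with dTAG13, at 38.1 and 83.1 against 6.98 and 6.57. Matrix genes gave 13 of 22 called higher (59.1%) and 3 lower (13.6%), with a median of 0.80: Sparc, which binds collagen, went from 113 and 97.7 to 283 and 315 units, and Nid1, of the basement membrane, fell from 161 and 139 to 40.5 and 35.0. In the insulin-like growth factor list Irs2, an adaptor of the receptor, was at 30.4 and 33.3 against 280 and 322 units and Igfbp2, a binding protein, at 118 and 93.0 against 24.9 and 28.6. Tap1, a peptide transporter of antigen presentation, rose from 3.11 and 4.58 to 58.8 and 57.7 units, and its exons overlap those of Psmb9, although the list of interferon and antigen presentation genes had 4 higher (25.0%) and 6 lower (37.5%) of 16.

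The day 4 changes were set beside those of day 2, which rest on other libraries. At day 2, 5577 genes (33.6% of those tested) were called, 13.7% higher and 19.9% lower. Of the day 4 calls 62.6% were also called at day 2, and of the day 2 calls 77.9% were also called at day 4. The test of the difference itself called 208 genes (1.25%), 128 with a higher log2 change at day 4 (0.771%) and 80 with a lower one (0.482%). For 192 of them the change at day 4 was called and was the larger one in the same direction, 118 increases and 74 decreases. The count of 208 was not stable: limma gave 0 without the variance trend (with 1898 genes at an unadjusted p under 0.05) and 16 when low genes were kept, while edgeR gave 248 and DESeq2 281 on recovered reads. It was 44 without day 4 dTAG13 replicate 2, 49 without day 2 dTAG13 replicate 1, 95 and 101 without day 2 DMSO replicate 2 and replicate 1, 115 without day 2 dTAG13 replicate 2, and 366 without day 4 DMSO replicate 2.

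**Figure D4:**
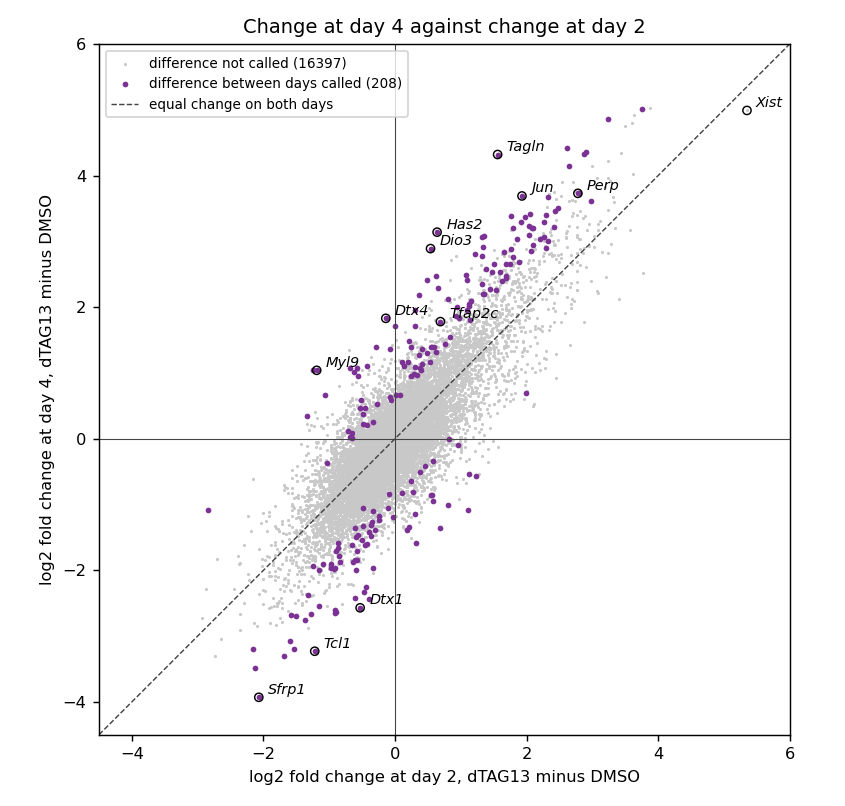
Each point is a tested gene with its log2 fold change (dTAG13 minus DMSO) at day 2 on the x axis and at day 4 on the y axis. The 208 purple points were called for the difference between days, and the dashed line marks equal changes. Tagln, Has2 and Dio3 lie above the line with day 4 changes of 4.32, 3.14 and 2.89, and Tcl1 and Dtx1 below it with -3.23 and -2.57.

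Tagln had a log2 change of 1.56 at day 2 and 4.32 at day 4 (difference 2.76, limma adjusted p 0.000158). Has2, a hyaluronan synthase, was at 0.430 and 0.697 units with DMSO and at 9.53 and 17.0 with dTAG13 at day 4, and its log2 change was 0.64 at day 2 and 3.14 at day 4. Jun had changes of 1.93 and 3.69 (difference 1.76, limma adjusted p 7.2e-05). Of the immediate early and heat shock list 5 of 19 genes were called for the difference, against 1.25% of all tested genes. However, 15 of its 19 genes were called at day 4, against 41.8% of all tested genes, and the day 4 change enters the difference. The list was also chosen with earlier results known, so this share is no evidence about such genes. Of the YAP and SRF list 7 of 24 were called for the difference. That list was chosen after these values were seen, so its share is no evidence either. Dio3, an imprinted enzyme that inactivates thyroid hormone, went from 1.40 and 1.19 to 15.5 and 16.5 units at day 4 (log2 change 2.89, against 0.54 at day 2). Myl9, a myosin light chain, was lower at day 2 (-1.19) and higher at day 4 (1.04), and Dtx4, a Deltex ubiquitin ligase of the Notch pathway, changed by -0.14 and 1.83.

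Some lead genes of the groups above also had larger day 4 changes. In the p53 list 6 of 28 genes were called for the difference, against 1.25% of all tested genes. However, 27 of the 28 were called at day 4, against 41.8% of all tested genes, and the day 4 change enters the difference. The list was also chosen with earlier results known, so this share is no evidence about such genes. Perp had log2 changes of 2.78 at day 2 and 3.73 at day 4, Mdm2 of 2.33 and 3.00 and Plk2 of 2.48 and 3.50. The change of Tfap2c was 0.69 at day 2 and 1.78 at day 4 (difference 1.09, limma adjusted p 0.0351). Those of Prdm1 (-1.13 and -1.65), Prdm14 (-1.89 and -2.08) and Nanog (-1.51 and -1.69) were not called different, with limma adjusted p between 0.418 and 0.873. Decreases that were larger at day 4 included Dtx1, a further Deltex gene (log2 change -0.53 at day 2 and -2.57 at day 4), the tubulin Tubb2a (-0.61 and -2.42) and the plexin domain gene Plxdc1 (-0.44 and -2.26). Tdh fell by 0.36 at day 2 and by 1.48 at day 4, and Tcl1 by 1.22 and 3.23. Among list members the day 2 values of Chac1 (-2.64) and Krt19 (3.08) were near those of day 4 (-3.04 and 3.18), with limma adjusted p for the difference of 0.674 and 0.957.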

How the data were processed

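The authors deposited 1 table of TMM-scaled CPM values for the 10 libraries of the dTAG13 experiment, with log2 fold changes, p-values and FDR of their own comparisons, per the file headers. Libraries were made from Trizol RNA with a NuGEN Ovation kit, per the labels' protocols. Bowtie2 2.3.4.3, SAMtools 1.9, HTSeq 0.11.2, edgeR 3.26.8 and mm10 are named in the submitters' processing notes, without settings. If reads were aligned without splicing, genes with pseudogenes or short exons would be affected most; this was not tested. Every value was a whole multiple of its library's step (100.0% within 0.01), so reads were recovered by division. In day 4 DMSO replicate 2 the step is too near 0.1 for an automatic check of this.

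Values were tested as log2(value + 1) with limma 3.58.1 (variance trend, R 4.3.3), group as the only term, on all 10 libraries, for genes with a mean of at least 1, with Benjamini-Hochberg adjustment. The procedure was tested on simulated data: it missed its pass mark with an assumed spread and met it with the table's own, and most of the smaller fold changes put in were not recovered. Alternatives were a pseudocount of 0.1, a mean minimum of 5 or none, median-ratio scaling, no variance trend, the replicate number as block, the 4 day 4 libraries alone, each library left out, chromosomes X and 6 left out, and edgeR 4.0.16 and DESeq2 1.42.0 on recovered reads. A count of 3 reads corresponded to 0.299 to 0.477 units; it covers counting error only. Chromosomes came from GENCODE M21, promoters from RefSeq (GRCm38.p6).

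The comparison, the 36 gene lists and the tests were chosen with earlier results of these data known, and 2 lists (Nodal; YAP and SRF) after these values were seen. Lists are described by counts and medians without a test. Named genes are Tex10 and the 10 largest increases and 10 largest decreases. These were taken among called genes with non-overlapping groups and a mean of at least 10 in the higher group (no Gm or Rik symbols). Of each list, up to 4 members were named by size of change, only from those called with non-overlapping groups. The 5 largest differences between days in each direction and 19 defining genes were also named. Further list members were named after their values were seen.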

Additional observations from a re-analysis of the deposited data

Results flagged for a closer look

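Among the named genes, 36 had a day 4 change that differed from the day 2 change in a limma test of the difference itself (adjusted p under 0.05), against 208 of all 16605 genes (1.25%). Of the 36, 10 were named because their difference was large, and most others because their day 4 change was, which itself enters the difference, so neither their number nor their direction measures how named genes differ. The values are differences of log2 changes, day 4 minus day 2, with 2 libraries in each of the 4 groups, and their number depends on the libraries kept, as the report gives. Those with the larger increase at day 4 were Tagln (2.76), Has2 (2.51), Dio3 (2.35), Wnt7b (1.94), Neurod1 (1.80), Jun (1.76), Gata2 (1.65), Vgf (1.63), Ccn1 (1.44), Ltb4r2 (1.26), Irs2 (1.11), Tfap2c (1.09), Notch3 (1.06), Plk2 (1.02), Perp (0.95), Nes (0.85), Rlim (0.85), Ddit4 (0.81) and Mdm2 (0.68). Myl9 (2.24), Dtx4 (1.97) and Egr1 (1.44) were below 0 at day 2 and above 0 at day 4. Those with the larger decrease were Dtx1 (-2.04), Tcl1 (-2.01), Sfrp1 (-1.86), Plxdc1 (-1.82), Tubb2a (-1.80), Gbx2 (-1.66), Slfn9 (-1.62), Pck2 (-1.36), Tdh (-1.12), Lefty2 (-1.03), Nid1 (-0.98), Spry4 (-0.95), Slc16a1 (-0.83) and Igfbp2 (-0.70).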

How the results depend on the processing

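The day 4 count of 6945 was 2597 with an absolute log2 change of at least 1 required. It was 6407 with edgeR and 5615 with DESeq2 on recovered reads, and 5370 to 6374 with a library left out. The count for the difference between days, 208, was 16 without a filter on low values, 0 without the variance trend, and 44 to 366 with a library left out; the cause was not tested. Ribosome biogenesis calls went from 42 to 26 with median-ratio scaling, and to between 27 and 39 with a day 4 library left out. Some list medians changed sign: endoderm was 0.02 with median-ratio scaling and -0.08 to 0.20 with a library left out, and Nodal signalling was 0.07 with median-ratio scaling. Without the filter neural ectoderm went from -0.55 to 0.20, fibroblast markers from -0.17 to 0.05 and interferon genes from -0.20 to 0.06, and fibroblast markers ranged from -0.29 to 0.18 with a library left out. Replicate numbers did not pair the libraries: correlations of their deviations were -0.0686 at day 4 and -0.0246 at day 2. The replicate block gave 6894 calls at day 4 and 201 for the difference, and it changed no call of a named gene at day 4. Of 156 named genes tested, 15 gained or lost their call under at least 1 setting, Sox2, Cdx2, Las1l and Nanos3 among them. With 2 libraries a group, and fewer reads in the dTAG13 libraries, many smaller changes and changes of genes near 3 reads may have been missed.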

Other observations

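Counts for the remaining gene lists at day 4 (limma adjusted p under 0.05) stand against 15.8% of all tested genes called higher and 26.0% lower. Of 14 housekeeping genes 2 were called higher and 3 lower, and with a day 4 library left out 1 to 3 were higher and 2 to 4 lower, with 3 calls in all without dTAG13 replicate 1. Of 14 tested insulin-like growth factor genes 3 were called higher and 3 lower (21.4% each). Of 10 Hox genes 3 were higher and 1 lower, and the lower call was lost with a pseudocount of 0.1, after median-ratio scaling, with no filter on low values and without 3 of the 4 day 4 libraries. Of 19 genes of the 2-cell-like state 3 passed the filter and 2 were called higher. This count rests on every library: limma called 1 without DMSO replicate 1, and 0 without DMSO replicate 2, without either dTAG13 replicate or with no filter.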
